A study of Mus musculus with 12 samples.

Results

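Splenocytes of DBA/2 mice aged 10 weeks were cocultured for 9 days with KLN-205 tumour cells, and the comparison described here asked what changed in their RNA when the tumour cells overexpressed SEMA6A. KLN-205 is a mouse squamous carcinoma line, and in all groups its SEMA3A was knocked down (KLN-205KD) and interleukin-2 was given at 100 units/mL every 3 days. The SEMA6A group held 3 arrays from cocultures with SEMA6A-overexpressing KLN-205KD cells, and the control group held 3 arrays from cocultures with KLN-205KD cells carrying no further change. Both groups were without SEMA3A protein. They were taken by their labels and make up 6 of the 12 arrays of the study, whose other 6 had purified SEMA3A at 10 µg/mL, with or without SEMA6A on the tumour cells. Whether the tumour cells were 1 clone, and whether replicate arrays stem from different cultures or mice, is not in the labels, so p-values measure only the spread between these samples.

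SEMA6A is a membrane-bound semaphorin that is read mainly by the receptors plexin A2 and plexin A4 on neighbouring cells. SEMA3A is secreted and is read by neuropilin 1 together with A-type plexins. Splenocytes kept with interleukin-2 and tumour cells come to be dominated by cytotoxic lymphocytes, which kill with granzymes and perforin, secrete cytokines such as interferon-gamma, and carry inhibitory receptors that restrain them. Activated lymphocytes run on glycolysis, and hypoxia-inducible factor (HIF) raises the genes of glucose uptake, glycolysis and mitophagy when the oxygen-sensing hydroxylases that mark it for destruction are inactive.

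The arrays read 1 intensity per probe set, printed below as quantile-normalized signals, which cannot be compared between genes. Differences are on the log2(signal + 16) scale, SEMA6A minus control, and understate those of dim genes. SEMA6A replicate 2 stood apart. Its 3'/5' signal ratio for Gapdh, a measure of RNA and labelling quality, was 1.22, while SEMA6A replicates 1 and 3 were at 0.775 and 0.782 and the control arrays at 0.780 to 0.818. The transferrin receptor ratio was 8.39, 35.7 and 23.3 on SEMA6A replicates 1, 2 and 3, with a control range of 6.82 to 9.34. For pyruvate carboxylase the ratio was 6.86, 15.5 and 10.3, with a control range of 7.01 to 8.26. The 18S control signal was 1331, 603 and 1986, against 1074 to 1397 on the control arrays. SEMA6A replicates 1, 2 and 3 differed from the control arrays by a median of 0.132, 0.318 and 0.193 on the log2 scale over all genes tested, while control arrays differed from each other by 0.138 to 0.148. Replicate 1 thus lay as near to the control arrays as these lay to each other, and each result below is given with its values on all 3 SEMA6A arrays.

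With limma over all 12 arrays, 0 of 11325 genes passed an adjusted p of 0.05 (0%; lowest adjusted p = 0.475), so no single gene is called changed here. An unadjusted p under 0.05 was reached by 740 genes that were higher with SEMA6A (6.53%) and 444 that were lower (3.92%), 1184 in all (10.5%), where chance gives 566. The 3 SEMA6A values lay above all 3 control values for 834 genes (7.36%) and below them for 540 (4.77%). With 3 arrays against 3, chance alone separates a share of 0.1 of genes, both directions together. These shares are the background for the counts of list members below. Without SEMA6A replicate 2, again 0 of 11242 genes passed (lowest adjusted p = 0.443). At an unadjusted p under 0.05 there were then 317 higher (2.82%) and 232 lower (2.06%), 549 in all, no more than chance gives. Without SEMA6A replicate 1, 321 of 11258 genes passed as higher (2.85%) and 191 as lower (1.7%), 512 in all. The count therefore rests on whether replicate 1, the array nearest to the control group, is in the fit. Leaving out an array of the control group gave 0 genes in each case.

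**Figure D1:**
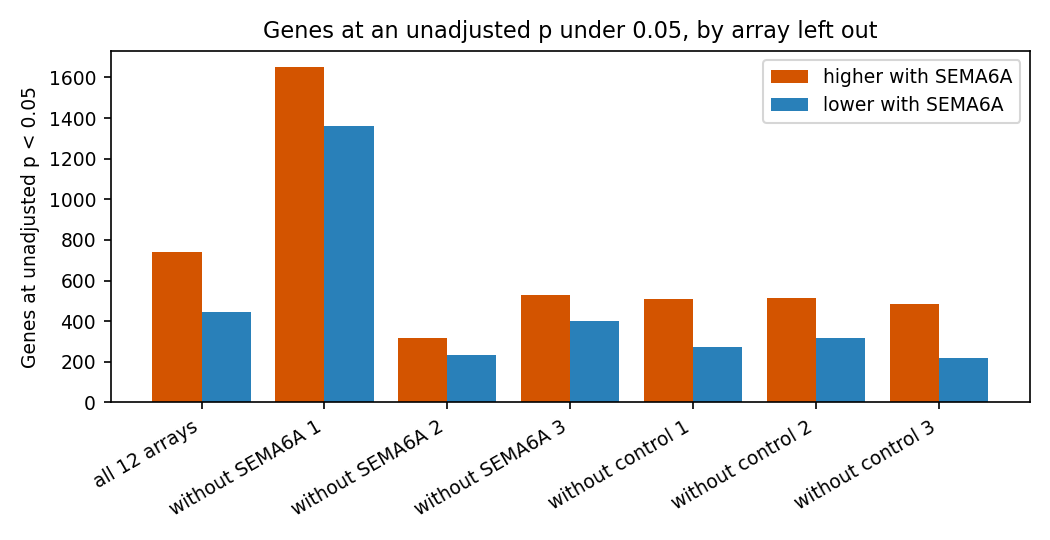
Number of genes at an unadjusted limma p under 0.05 (y axis, from 0) for SEMA6A against control with all 12 arrays and with each SEMA6A or control array left out (x axis), split into genes higher and genes lower with SEMA6A. Without SEMA6A replicate 1 the bars stand at 1649 and 1363, and without SEMA6A replicate 2 at 317 and 232.

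Genes of glucose use and of the response to low oxygen had higher signals with SEMA6A on most arrays, without passing the test gene by gene. Of 22 tested glycolysis genes, 19 lay above 0, against 53.3% of all genes tested, and the median difference was 0.31, against 0.02 for all genes. An unadjusted p under 0.05 was reached by 13 of the 22 as higher and by 0 as lower, and 11 had arrays that did not overlap. Over all genes, 6.53% were higher at that threshold and 7.36% were separate as higher. Of 27 other hypoxia targets, 24 lay above 0 with a median of 0.37, and 14 were higher at an unadjusted p under 0.05. Of 18 genes of the oxygen-sensing machinery itself, 13 lay above 0 with a median of 0.15, and 5 were higher at that threshold. By array, the median glycolysis gene was at 0.12, 0.58 and 0.36 above its control mean on SEMA6A replicates 1, 2 and 3, and at -0.07 to 0.06 on the control arrays. The median hypoxia target was at 0.12, 0.53 and 0.41 on the SEMA6A arrays, and at -0.06 to -0.01 on the control arrays. For both lists every SEMA6A array lay above every control array, with replicate 1 the lowest. Without replicate 2 the medians were 0.23 for glycolysis, 0.28 for the hypoxia targets and 0.05 for oxygen sensing.

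Promoters are shown for the 3 members of these lists with the smallest p that hold the HIF core, so that the letters can be read beside the values. Each runs from 250 bases before to 50 bases after the RefSeq start (assembly GRCm38.p6, all on the minus strand, printed 5′ to 3′ in the direction of transcription), and the capitals mark ACGTG or GCGTG, or their reverse complements CACGT and CACGC. Egln1 lies at chr8:124949205-124949504, Higd1a at chr9:121857747-121858046 and Egln3 at chr12:54203825-54204124.
Egln1: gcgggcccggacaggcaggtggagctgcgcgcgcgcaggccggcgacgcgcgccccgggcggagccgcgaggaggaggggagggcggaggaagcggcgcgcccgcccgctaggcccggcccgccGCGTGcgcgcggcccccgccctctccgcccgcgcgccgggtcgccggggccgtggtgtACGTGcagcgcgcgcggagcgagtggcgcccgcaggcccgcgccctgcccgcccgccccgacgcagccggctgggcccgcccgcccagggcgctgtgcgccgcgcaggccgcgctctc
Higd1a: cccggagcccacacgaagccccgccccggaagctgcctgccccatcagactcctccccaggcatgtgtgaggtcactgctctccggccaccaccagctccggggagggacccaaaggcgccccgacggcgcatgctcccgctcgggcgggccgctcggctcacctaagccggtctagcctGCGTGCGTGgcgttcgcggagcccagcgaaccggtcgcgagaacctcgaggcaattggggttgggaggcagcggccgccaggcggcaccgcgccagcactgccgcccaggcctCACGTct
Egln3: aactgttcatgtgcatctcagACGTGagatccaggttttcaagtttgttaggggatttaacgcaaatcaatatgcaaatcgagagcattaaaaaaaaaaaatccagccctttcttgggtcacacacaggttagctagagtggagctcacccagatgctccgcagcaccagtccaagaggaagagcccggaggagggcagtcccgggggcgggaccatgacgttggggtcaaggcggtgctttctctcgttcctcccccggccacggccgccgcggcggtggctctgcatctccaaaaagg
The Egln1 window held 2 cores, the Higd1a window 3 and the Egln3 window 1. ACGTG is part of the E-box CACGTG, which these windows held 0 times. At least 1 core was found in 49 of the 58 tested members with a promoter entry (84.5%), in 67.3% of the 9211 tested genes with an entry and in 46.7% of all 27025 entries. By list the share was 95.2% for glycolysis, 87.0% for the other hypoxia targets and 64.3% for oxygen sensing, the list of Egln1 and Egln3. ACGTG alone was in 71.4%, 73.9% and 28.6% of these lists, and in 29.6% of the tested genes. A match describes the letters and is not a measured site.

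Egln1 and Egln3, genes of hydroxylases that mark HIF for destruction, had higher signals on every SEMA6A array than on any control array. Egln1, which encodes the main HIF prolyl hydroxylase PHD2, was at 1960, 3220 and 3105 on SEMA6A replicates 1 to 3, against 1709, 1863 and 1646 on the control arrays. Egln3, the PHD3 gene and itself a HIF target, was at 2025, 4084 and 2295, against 1020, 1497 and 1537. The groups did not overlap in either gene, and the differences were 0.63 ± 0.16 and 1.00 ± 0.27 (SE), or 0.50 and 0.69 without replicate 2. A second probe set of Egln3 gave 1.03. Of the other sensors, Vhl, the ubiquitin ligase subunit that binds hydroxylated HIF, was at 453, 641 and 585, against 434, 412 and 417. Ep300, a HIF coactivator, was at 1692, 3023 and 1945, against 1535, 1432 and 1499. Both were separate between groups by a narrow gap on replicate 1, and another probe set of Vhl gave -0.48. Hif1an, which encodes the asparaginyl hydroxylase of HIF, overlapped with the control arrays on replicate 1 (444, 714 and 594, against 416, 418 and 456). Hif1a, the oxygen-regulated HIF subunit, was at 8802, 8447 and 8722, against 7915, 7817 and 10200, with no separation.

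Most of the mitochondrial and matrix genes named from the hypoxia response lay higher, with replicate 1 the lowest SEMA6A array. Higd1a, a mitochondrial protein gene induced by HIF, was at 9763, 13020 and 11310 with SEMA6A, against 8593, 8660 and 8981. Bnip3, a mitophagy receptor gene, was at 10620, 15790 and 16360, against 8099, 9640 and 9362. Ak4, a mitochondrial adenylate kinase gene, was at 756, 1225 and 1236, against 378, 660 and 495. The groups did not overlap in any of these 3 genes, and the difference of Ak4 was 1.05 ± 0.29 (SE), or 0.93 without replicate 2. Fam162a, a HIF target linked to cell death, was at 8989, 10720 and 11480, against 7364, 7575 and 8013. Of the collagen prolyl hydroxylase subunits, P4ha1 was at 995, 1305 and 1519, against 849, 974 and 837. P4ha2 was at 130, 259 and 301, against 97.3, 150 and 83.4. P4ha2 overlapped through replicate 1, P4ha1 did not, and a second probe set of P4ha1 gave -0.24. Mxi1, a MYC antagonist gene, was at 360, 1240 and 617, against 253, 271 and 326, and its difference was 1.17 ± 0.41, or 0.71 without replicate 2. Vegfa, the angiogenic growth factor gene and a textbook HIF target, overlapped, at 252, 282 and 217, against 204, 293 and 206.

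Along glycolysis the pattern ran over uptake, the aldolase and kinase steps and lactate formation. Slc2a1, the glucose transporter GLUT1 gene, was at 4609, 8933 and 7233, against 3795, 4654 and 4201. Replicate 1 fell inside the control range there, and 2 further probe sets gave 0.65 and 0.64 beside the 0.67 of the one used. Pfkl, a phosphofructokinase gene, was at 1388, 2580 and 2334, against 1105, 1201 and 1300, and one of its other probe sets gave -0.14. Aldoc, an aldolase gene, was at 877, 3958 and 2011, against 742, 754 and 865. Its difference was 1.27 ± 0.42 (SE), or 0.75 without replicate 2, and a second probe set gave 1.26. The bright genes differed less in log2 terms. Aldoa was at 24030, 31750 and 28910, against 21890, 22820 and 23290. Tpi1, the triose phosphate isomerase gene, was at 19370, 27580 and 26260, against 15530, 18500 and 16610. Ldha, the lactate dehydrogenase A gene, was at 30120, 37310 and 32400, against 27910, 28960 and 29110. All 3 were separate between the groups. Pgm1, of glycogen and glucose phosphate exchange, was at 868, 1774 and 1694, against 672, 814 and 773. Pdk1, the kinase that closes pyruvate's entry to the mitochondria, was at 2188, 3947 and 2936, against 1667, 2217 and 1547, and overlapped by replicate 1. Without SEMA6A replicate 1, adjusted p-values passed for 10 glycolysis genes, 10 other hypoxia targets and 4 oxygen-sensing genes, all higher. Of all 11258 genes in that fit, 2.85% passed as higher. The fit leaves out the SEMA6A array nearest to the control group and keeps replicate 2, which by itself favours larger differences.

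Among the 3 SEMA6A arrays, the glycolysis, hypoxia and oxygen-sensing lists were highest on replicate 2 and lowest on replicate 1. The squamous carcinoma list and the transferrin receptor and pyruvate carboxylase 3'/5' ratios had the same order. The 18S signal had another order, and the Gapdh ratio put replicate 2 alone apart from the control arrays. The squamous carcinoma list, which could mark RNA of the tumour cells in the culture, had 16 of 19 tested members above 0. Its median was 0.36, or 0.21 without replicate 2, and 4 were higher at an unadjusted p under 0.05, against 6.53% of all genes tested. Its mean log2 level over the 32 members on the array was 6.29 to 6.55 on the SEMA6A arrays and 6.09 to 6.26 on the control arrays, again lowest on replicate 1. Krt19, a keratin of simple and squamous epithelia, was at 80.4, 205 and 180, against 55.2, 28.7 and 22.6. Krt7 was at 104, 124 and 128, against 67.7, 27.3 and 65.5. Cd24a, a glycoprotein gene of epithelia and immature lymphocytes, was at 77.8, 140 and 154, against 42.4, 30.8 and 10.96. These dim genes were separate, while Epcam, a brighter epithelial marker, overlapped at 681, 977 and 960, against 1087, 607 and 907. Krt5, a keratin gene among the fixed squamous markers, passed the filter on dim probe sets and overlapped, at 35.9, 70.6 and 54.4, against 51.0, 63.1 and 69.3. Krt14, Krt17 and Trp63 did not pass that filter, with at most 28.6 on any of these 6 arrays. The transferrin receptor and pyruvate carboxylase ratios, above, were also high on replicates 2 and 3. The part of tumour cell RNA and of the 3'/5' ratios in the oxygen and glycolysis values was not tested.

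**Figure D2:**
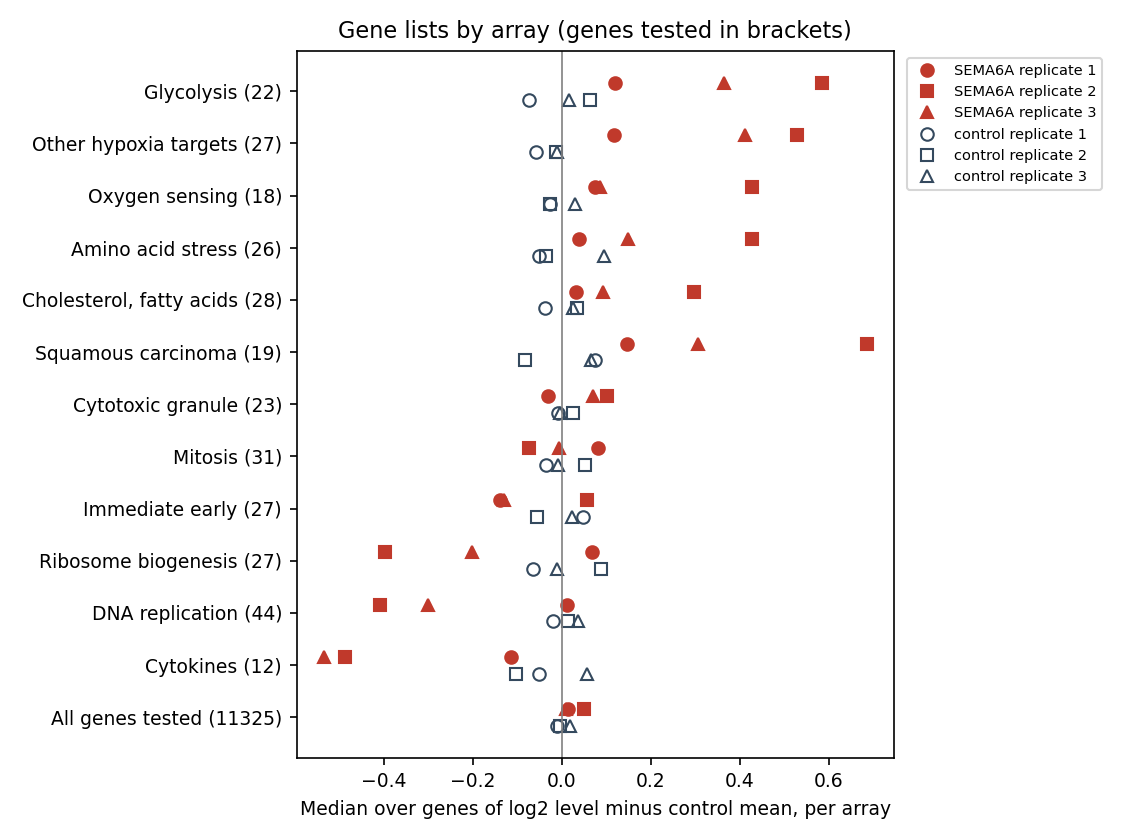
Median over the tested genes of each list of the log2 level minus the gene's control mean (x axis), by array, for 12 gene lists and for all genes tested (y axis, number of genes tested in brackets). Filled symbols are the 3 SEMA6A arrays and open symbols the 3 control arrays. Replicates 2 and 3 lie at 0.58 and 0.36 for glycolysis and at -0.41 and -0.30 for DNA replication, while replicate 1 lies at 0.12 and 0.01.

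Cytokine genes mostly lay lower with SEMA6A. Of 24 cytokine genes listed, 12 passed the filter, and 10 of these lay below 0 with a median of -0.39, or -0.31 without replicate 2. At an unadjusted p under 0.05, 5 were lower and 1 higher, against 3.92% and 6.53% of all genes tested. By array the median cytokine gene was at -0.11, -0.49 and -0.53 on SEMA6A replicates 1 to 3, and at -0.10 to 0.06 on the control arrays. Ifng, the interferon-gamma gene, was at 455, 322 and 240, against 524, 541 and 552, so that replicate 3 was the lowest. That array had an ordinary Gapdh ratio but high transferrin receptor and pyruvate carboxylase ratios. The difference of Ifng was -0.69 ± 0.22 (SE) with replicate 2 and -0.68 without it. Csf2, the GM-CSF gene, was at 667, 132 and 324, against 779, 708 and 919. Its difference of -1.33 ± 0.56 was -0.76 without replicate 2. Osm, of the interleukin-6 family, was at 1500, 856 and 1132, against 1608, 1508 and 1743. These 3 genes were separate between the groups. Lta, the lymphotoxin alpha gene, was at 1122, 307 and 465, against 1027, 1243 and 1141, with replicate 1 inside the control range. Il24, an interleukin-10 family gene, was at 204, 88.2 and 102, against 201, 255 and 228. Tnf overlapped, at 839, 744 and 586, against 835, 673 and 1177. Il10, which lay on the other side, was at 106, 150 and 155, against 62.2, 128 and 56.7. Il2 did not pass the filter.

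The chemokine list had 8 of 15 members tested, 6 of them below 0 with a median of -0.16, or -0.35 without replicate 2. At an unadjusted p under 0.05, 3 were lower, against 3.92% of all genes tested, and 0 were separate between the groups. Xcl1, which draws cross-presenting dendritic cells, was at 1071, 147 and 582, against 1667, 1221 and 974. Its difference of -1.43 ± 0.64 (SE) was -0.66 without replicate 2. Ccl3 was at 308, 213 and 178, against 526, 298 and 429. Ccl4, of the same family, overlapped at 1052, 800 and 736, against 935, 932 and 1066.

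Inhibitory receptor genes did not share 1 direction. Of 21 tested, 13 lay above 0 with a median of 0.14. At an unadjusted p under 0.05, 3 were higher and 3 lower, against 6.53% and 3.92% of all genes tested. Pdcd1, the PD-1 gene, was at 450, 810 and 650 with SEMA6A, against 230, 349 and 269, separate on every array, with 1.11 ± 0.34 (SE), or 0.92 without replicate 2. Lag3, which binds MHC class II, was at 265, 989 and 596, against 288, 176 and 176. Ctla4, which competes for the costimulatory ligands, was at 1089, 3667 and 2639, against 1121, 1161 and 1021. In both, replicate 1 was within the control range and replicates 2 and 3 above it. Havcr2, the TIM-3 gene, was at 2376, 4069 and 3304, against 2527, 2646 and 2616, with replicate 1 below the control arrays and replicates 2 and 3 above them. The ligand genes of PD-1 lay lower, Pdcd1lg2 at 1405, 992 and 1238, against 1517, 1547 and 2043. Cd274 was at 451, 340 and 404, against 486, 479 and 500. Klrc1, the NKG2A gene, was at 1848, 903 and 1392, against 2660, 2131 and 2215, and these 3 genes were separate.

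**Figure D3:**
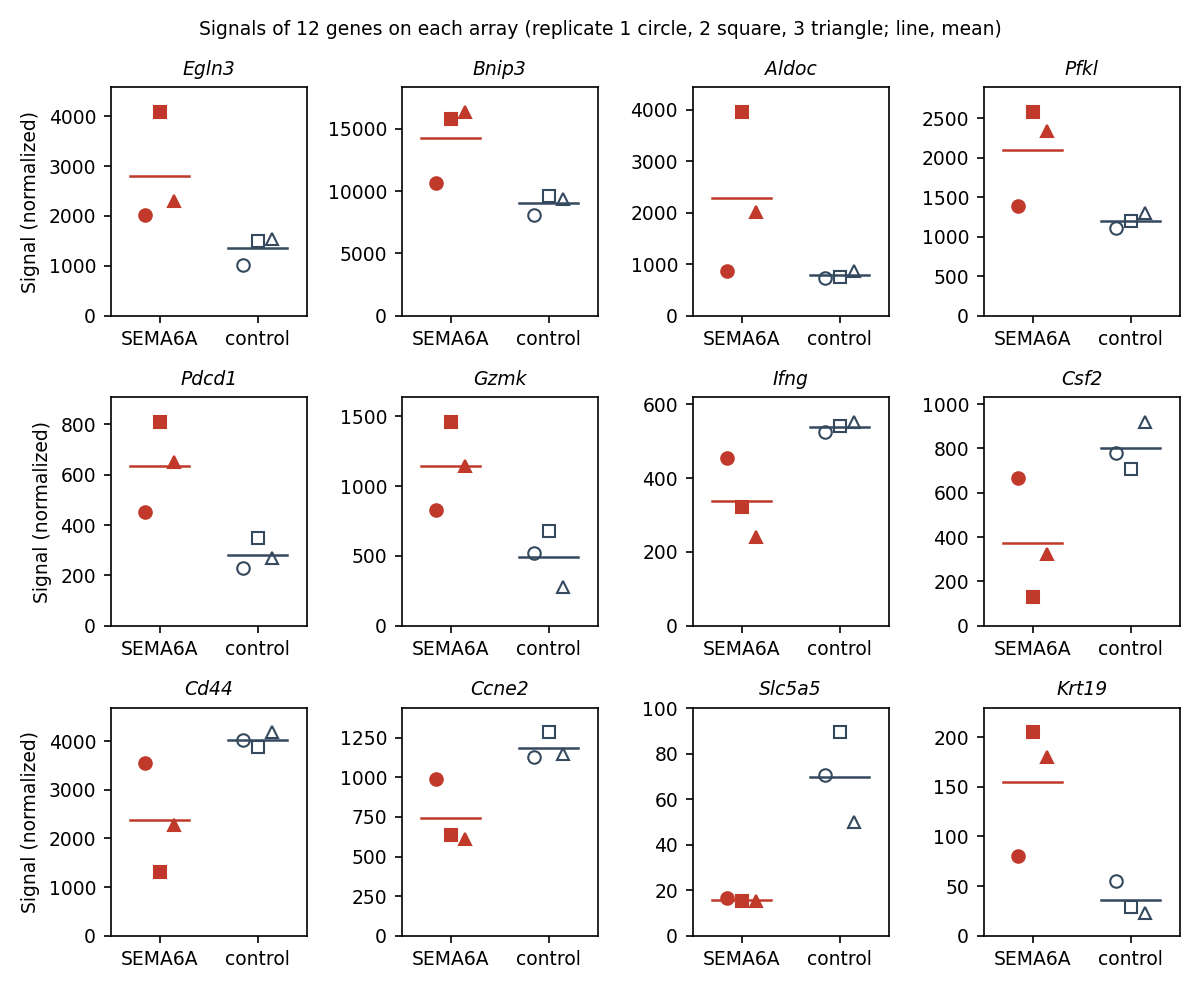
Quantile-normalized signals (y axes, linear, from 0) of 12 genes on the 3 SEMA6A arrays, at left in each panel, and the 3 control arrays, at right. Symbols are single arrays by replicate and lines are group means. Egln3 is at 2025, 4084 and 2295 with SEMA6A and at 1020 to 1537 in the control group, and Ifng at 455, 322 and 240 with SEMA6A and at 524 to 552 in the control group.

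The killing machinery was bright and differed little. Of 23 cytotoxic granule genes, 14 lay above 0 with a median of 0.03, while without replicate 2 there were 11 above 0 and the median was -0.0020. With all arrays, 4 were higher and 2 lower at an unadjusted p under 0.05, and 3 were separate, all as higher. Of all genes tested, 6.53% and 3.92% reached that threshold and 7.36% were separate as higher. Gzmk, the granzyme K gene of a less differentiated effector state, was at 826, 1460 and 1141, against 519, 675 and 275, with a difference of 1.25 ± 0.35 (SE), or 1.05 without replicate 2. Gzma was at 37210, 40110 and 38980, against 35240, 36130 and 29840. Gzmf, of the granzyme cluster seen in late cytotoxic cells, was at 15700, 5996 and 9454, against 13790, 17320 and 14440, with replicate 1 inside the control range. Gzmb was at 47450, 42090 and 46610, against 43740, 41110 and 44860, near the highest signals on these arrays. Prf1, the perforin gene, overlapped at 13040, 19140 and 15230, against 14080, 13730 and 15770, and its 0.11 ± 0.16 was -0.04 without replicate 2. Fasl, the death ligand gene, overlapped as well, at 4010, 4500 and 4332, against 4168, 4553 and 3874.

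Markers of the lymphocytes themselves bear on these values. Cd3e, of the T cell receptor complex, was at 5215, 6566 and 5619, against 4929, 4031 and 4324, yet 9 of the 10 tested T cell markers lay below 0. The mean log2 level of the T cell list was 11.3 to 11.5 with SEMA6A and 11.5 to 11.7 in the control group, and that of the natural killer list 8.76 to 9.00 and 9.09 to 9.25. Cd8a was at 3900, 1830 and 3974, against 3415, 3589 and 2323. Cd8b1 was at 3033, 1473 and 3018, against 3124, 2741 and 2652. Replicate 2 was the lowest array for both, and a second Cd8a probe set read 493 there, against 4145 and 3777 on SEMA6A replicates 1 and 3. Cd4 and Foxp3 did not pass the filter, at no more than 11.01 and 28.6. In RNA from a whole culture, fewer cells of a type and less RNA per cell cannot be told apart, and the part of cell composition in the immune gene values was not tested. Defining markers of B cells (Cd79a, Ms4a1, Pax5), macrophages (Adgre1), neutrophils (S100a8, S100a9), mast cells (Fcer1a) and fibroblasts (Col1a1) also stayed below the filter, at no more than 45.4. Of the marker lists, 5 B cell, 8 macrophage, 3 neutrophil, 5 mast cell and 4 fibroblast and endothelium genes passed the filter. Csf1r, the receptor gene of macrophage growth factor, passed it and overlapped, at 89.5, 112 and 93.4, against 87.2, 96.2 and 84.0. The macrophage list had a mean log2 level of 6.11 to 6.30 with SEMA6A and 6.02 to 6.13 in the control group, the neutrophil list 5.41 to 5.77 and 5.35 to 5.41, and the mast cell list 5.92 to 6.12 and 5.71 to 5.89. Of the 3 tested neutrophil genes, 2 lay above 0, both at an unadjusted p under 0.05, and 1 below. Their median was at -0.0909, 1.687 and 1.225 on SEMA6A replicates 1 to 3, and at -0.0899 to 0.0307 on the control arrays. Ltf, the lactotransferrin gene, was separate at 79.6, 190 and 268, against 44.9, 43.2 and 56.1. Ighm, the immunoglobulin M heavy chain gene, was at 335, 350 and 731, against 196, 297 and 162.

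Genes downstream of interleukin-2 and of the antigen receptor had small median differences, and the SEMA6A arrays lay on both sides of the control arrays. The median gene of cytokine signalling had SEMA6A values of -0.06, 0.24 and 0.15 for replicates 1, 2 and 3, while control arrays spanned -0.04 to 0.04. The median immediate early gene was at -0.14, 0.06 and -0.13 with SEMA6A, and control arrays spanned -0.05 to 0.05. Of 23 tested genes of cytokine signalling and its feedback, 15 lay above 0 with a median of 0.11. At an unadjusted p under 0.05, 6 were higher and 1 lower, against 6.53% and 3.92% of all genes tested. Il2ra, the high-affinity interleukin-2 receptor chain gene, was at 4406, 7635 and 5433, against 3993, 3938 and 4000, although a second probe set gave -0.05. Pim2, a survival kinase gene induced by STAT5, was at 3151, 5558 and 4583, against 2863, 2700 and 2507. Prdm1, which encodes the effector factor BLIMP1, was at 730, 1258 and 1624, against 578, 609 and 580. All 3 genes were separate, with replicate 1 nearest to the control arrays. Socs1, the feedback inhibitor of cytokine receptors, was lower, at 782, 312 and 716, against 945, 965 and 806. Of 27 immediate early genes, 17 lay below 0 with a median of -0.06, 5 were lower at an unadjusted p under 0.05 and 5 were separate. Of all genes tested, 3.92% were lower at that threshold and 4.77% were separate as lower. Dusp2, a phosphatase gene switched on by the antigen receptor, was at 4925, 5615 and 4282, against 6190, 5893 and 6819. Egr1 was at 15280, 16970 and 16090, against 19400, 17190 and 19540. Egr2 was at 233, 264 and 181, against 338, 277 and 387. Irf4 was at 1004, 789 and 909, against 1202, 1040 and 1157. In Dusp2, Egr1 and Egr2 replicate 2 was the SEMA6A array nearest to the control group, so that the differences were larger without it, at -0.45, -0.25 and -0.65, against -0.36, -0.21 and -0.54 with it.

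Surface genes of adhesion and homing did not share 1 direction. Of 14 tested chemokine and homing receptors, 8 lay above 0 with a median of 0.16, or -0.06 without replicate 2. Of 13 integrin genes, 9 lay above 0 with a median of 0.05, or -0.0091 without replicate 2. Cd44, the hyaluronan receptor of activated cells, was at 3549, 1301 and 2281, against 4024, 3887 and 4191. Its 3 probe sets gave -0.87, -0.86 and -0.80. Itgb1, the integrin beta 1 gene, was at 2534, 1581 and 2004, against 2673, 2917 and 3042, and both genes were separate. Ccr7, the lymph node homing receptor gene, was at 292, 56.0 and 114, against 287, 294 and 343, with replicate 1 within the control range. Klf2, a factor of lymphocyte recirculation, was at 197, 224 and 219, against 143, 165 and 129. Of 19 tested members of the TNF family, 11 lay below 0 with a median of -0.02, or -0.13 without replicate 2. At an unadjusted p under 0.05, 5 were lower and 1 higher, against 3.92% and 6.53% of all genes tested. Tnfsf11, the RANK ligand gene, was at 1375, 457 and 680, against 1372, 1945 and 1159. Tnfsf8, the CD30 ligand gene, was at 94.6, 52.9 and 56.7, against 161, 87.4 and 128. Both overlapped with the control arrays.

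DNA replication genes stood lower on 2 of the 3 SEMA6A arrays. Of 44 tested, 36 lay below 0 with a median of -0.26, or -0.12 without replicate 2. At an unadjusted p under 0.05, 13 were lower and 3 higher, against 3.92% and 6.53% of all genes tested. The median replication gene was at 0.01, -0.41 and -0.30 on SEMA6A replicates 1, 2 and 3, and at -0.02 to 0.04 on the control arrays, so that replicate 1 fell among the control arrays. Ccne2, the cyclin E2 gene of S phase entry, was at 992, 639 and 608, against 1127, 1287 and 1148. Pola1, the catalytic subunit gene of DNA polymerase alpha, was at 2276, 1441 and 1426, against 2780, 2362 and 2340. Hells, a chromatin remodeller gene, was at 4404, 3507 and 3347, against 4624, 5016 and 4406. Some members lay on the other side. Rpa1, of the single-strand binding complex, was at 14650, 16600 and 15050, against 13470, 13810 and 13380. Mcm6, of the replicative helicase, was at 8272, 10890 and 12710, against 8238, 8802 and 7552. Lig1, the DNA ligase gene, was at 5861, 7156 and 6528, against 4332, 4876 and 6270. Of the named replication genes Ccne2, Pola1, Hells and Rpa1 were separate. Of 31 mitosis genes, 14 lay above 0 with a median of -0.04, while without replicate 2 there were 19 above 0 and the median was 0.04. Mki67, the proliferation marker gene, was at 10300, 11960 and 9918, against 8997, 9408 and 9712. Ccng2, a cyclin G2 gene that rises when cells leave the cycle, was at 1202, 3465 and 2458, against 1174, 1052 and 1188.

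Genes of ribosome assembly had the same order of arrays as the replication genes. Of 27 genes of MYC and ribosome biogenesis, 24 lay below 0 with a median of -0.21, or -0.09 without replicate 2. At an unadjusted p under 0.05, only 3 were lower and 2 higher, against 3.92% and 6.53% of all genes tested. By array the median was 0.07, -0.40 and -0.20 with SEMA6A, against -0.07 to 0.09 in the control group. Nop58, of the box C/D particles that modify ribosomal RNA, was at 6056, 3601 and 4441, against 6199, 6278 and 5713. Rrs1, a ribosome assembly factor gene, was at 6470, 2961 and 4779, against 5844, 6819 and 6629. Both overlapped through replicate 1. The MYC antagonist genes of the list lay higher, Mxd1 at 91.7, 203 and 170, against 102, 91.6 and 69.8. Mnt was at 826, 1455 and 1000, against 764, 858 and 655. Mitochondrial ribosome genes had 47 of 61 below 0 with a median of -0.09, and 0.00 without replicate 2. Without SEMA6A replicate 1, 16 replication genes and 5 genes of MYC and ribosome biogenesis passed as lower, and 1 and 2 as higher. Over all genes in that fit, which keeps replicate 2, 1.7% passed as lower and 2.85% as higher.

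**Figure D4:**
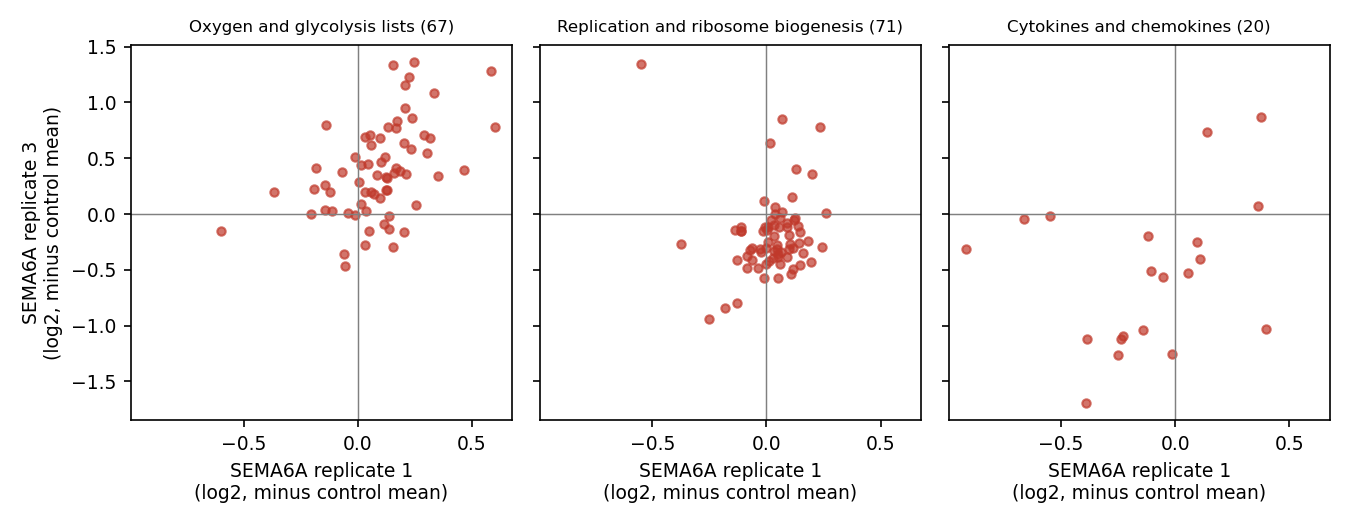
Log2 level minus the control mean on SEMA6A replicate 1 (x axis) and SEMA6A replicate 3 (y axis), both with ordinary Gapdh ratios, 1 point per tested gene. Replicate 3 had a high transferrin receptor ratio. Of 67 oxygen and glycolysis genes, 44 lie above 0 on both arrays (65.7%, against 30% of all genes tested). Below 0 on both lie 22 of 71 replication and ribosome biogenesis genes (31%) and 13 of 20 cytokines and chemokines (65%). Of all genes tested, 24.4% lie there.

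The 2 SEMA6A arrays with ordinary Gapdh ratios can be read without replicate 2. Of these, replicate 3 still had a transferrin receptor ratio of 23.3 and a pyruvate carboxylase ratio of 10.3. Of the 67 tested members of the glycolysis, oxygen-sensing and other hypoxia lists, 51 were above their control mean on replicate 1 and 56 on replicate 3, with 44 above on both (65.7%), against 30% of all genes tested. Of 20 tested cytokines and chemokines, 13 were below the control mean on both arrays (65%), against 24.4% of all genes. Of the 71 genes of replication and of MYC and ribosome biogenesis, 47 were above the control mean on replicate 1, against 11 on replicate 3. Below it on both arrays were 22 (31%), against 24.4% of all genes.

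Lipid and amino acid genes lay slightly higher, with replicate 2 the farthest. Of 28 cholesterol and fatty acid synthesis genes, 22 lay above 0 with a median of 0.14, or 0.05 without replicate 2. At an unadjusted p under 0.05, 8 were higher and 0 lower, against 6.53% and 3.92% of all genes tested. Scd1, the stearoyl-CoA desaturase gene, was at 5140, 7147 and 6721, against 4281, 4972 and 4606. Pmvk, of the mevalonate pathway, was at 1089, 1523 and 1180, against 936, 932 and 903. Lss, which encodes lanosterol synthase, was at 1914, 2912 and 1985, against 1685, 1833 and 1600, and the 3 genes were separate. Of 26 genes of the amino acid stress response, 20 lay above 0 with a median of 0.19, or 0.07 without replicate 2, and 5 were higher and 0 lower. Aars, the alanyl-tRNA synthetase gene, was at 4034, 5982 and 3742, against 2790, 3104 and 3595, although a second probe set gave -0.02. Chac1, a glutathione-degrading enzyme gene of that response, was at 754, 1527 and 817, against 595, 691 and 735. Oxidative phosphorylation genes had a median of 0.02 over 52 tested, with 4 higher and 0 lower, and type I interferon genes -0.12 over 25, with 1 higher and 0 lower. Without replicate 2 these medians were 0.03 and -0.0040.

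Of the semaphorins and their receptors, none separated as a group. Sema6a and Sema3a had 3 probe sets each and 0 of them passed the filter, with at most 42.0 and 49.1 on any array, so that splenocyte RNA did not show whether SEMA6A was overexpressed or SEMA3A knocked down. Of the receptors, Plxna4 was at 42.9, 116 and 76.2, against 49.9, 61.6 and 67.7. Plxna1 was at 106, 75.3 and 85.6, against 88.4, 71.8 and 107. Nrp1 was at 134, 71.4 and 79.1, against 88.9, 105 and 88.4. The groups overlapped in each. Plxna3 was at 54.5, 61.1 and 53.4, against 46.4, 42.1 and 78.5, while Plxna2 and Nrp2 did not pass. Of 22 tested members of the family, 10 lay above 0 with a median of -0.04, or 0.0031 without replicate 2. At an unadjusted p under 0.05, 1 was higher and 1 lower, against 6.53% and 3.92% of all genes tested. Sema4c, a membrane semaphorin gene, was separate at 91.0, 68.5 and 80.7, against 35.7, 55.4 and 47.3. The semaphorins of lymphocytes overlapped, Sema4d at 6316, 8441 and 7080, against 6928, 6141 and 6256. Sema7a was at 548, 249 and 368, against 402, 732 and 464.

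Outside these lists, the genes with the smallest p were mostly dim or modest in size. Slc5a5, the sodium and iodide symporter gene, was at 16.8, 15.1 and 15.2 with SEMA6A, against 70.4, 89.5 and 49.8, a difference of -1.41 ± 0.24 (SE) that replicate 2 did not move (-1.40 without it). Of these 6 values of Slc5a5, those of the control group alone lay above the median signals of the arrays, 42.5 to 49.2. Scyl2, a clathrin-vesicle protein gene, was at 699, 522 and 913, against 1347, 1366 and 1202, and one of its 3 probe sets gave 0.30. Mier3 was at 299, 212 and 235, against 450, 345 and 382. Zfp800 was at 467, 433 and 456, against 630, 629 and 630, with probe sets of Zfp800 ranging from -0.53 to 0.30. Higher with SEMA6A were Gtf2ird2, at 635, 658 and 596, against 373, 415 and 480. Mboat2, a phospholipid remodelling enzyme gene, was at 169, 244 and 161, against 74.0, 95.7 and 99.7. Cpt1a, which admits fatty acids to mitochondria, was at 607, 890 and 774, against 465, 486 and 519. Idh1, the cytosolic NADPH-forming isocitrate dehydrogenase gene, was at 547, 1096 and 763, against 422, 464 and 452. These 8 genes were separate, and their limma adjusted p was 0.475 each.

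The largest differences among genes separate between the groups and reaching a mean signal of 100 included several that were farthest from the control arrays on replicate 2. Arrb1, the beta-arrestin 1 gene, was at 290, 1651 and 829, against 222, 239 and 220, and its 1.64 ± 0.50 (SE) was 1.07 without replicate 2. Car2, the carbonic anhydrase 2 gene, was at 3356, 1093 and 1884, against 3893, 3806 and 4754. Cd6, a T cell surface receptor gene, was at 153, 33.7 and 58.7, against 194, 210 and 170. Their differences of -1.11 and -1.27 were -0.71 and -0.88 without replicate 2. Crtam, an adhesion receptor gene of activated CD8 T cells, was instead lowest on replicate 3, at 374, 259 and 160, against 713, 419 and 487, with -1.03 ± 0.33 and -1.05 without replicate 2. Ms4a4c did the same, at 483, 493 and 315, against 1094, 610 and 1031.

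Probe sets of 1 gene can disagree. Probe sets were compared for 142 genes, which do not include Vegfa, Cd8b1, Epcam, Krt5 and Csf1r. Of the 142, 62 had several probe sets past the filter, and in 22 of the 62 the probe sets did not all lie on 1 side of 0. Those named above with such a split are Vhl, P4ha1, Pfkl, Il2ra, Aars, Scyl2, Zfp800, Hif1a, Fasl, Cd8a, Nrp1, Sema4d and Sema7a. Hif1a had 3, at 0.01, 0.05 and -0.54, the last from a probe set at signals of 31.1 to 65.4.

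SEMA6A was also tested where SEMA3A protein was present, on 6 other arrays. There the medians for SEMA6A with SEMA3A minus SEMA3A alone were -0.25 for glycolysis, -0.35 for the other hypoxia targets, 0.20 for cytokines, 0.16 for DNA replication and 0.20 for MYC and ribosome biogenesis, each on the other side of 0 from the value without SEMA3A. Egln3 had a difference of -0.65 there, Bnip3 of -0.61, Ifng of 0.77 and Ccne2 of 0.64. The arrays with SEMA3A alone, the baseline here, mostly lay away from the control mean. Their median glycolysis gene was at 0.55, 0.47 and 0.11 above it, and their median cytokine gene at -0.63, -0.40 and -0.03. On the arrays with both, glycolysis was at 0.11, 0.04 and 0.16 and cytokines at 0.03, 0.11 and -0.06. The difference between both SEMA6A effects was tested per gene as an interaction, in which 0 of 11325 genes passed (0%; lowest adjusted p = 0.197) and 2037 were at an unadjusted p under 0.05 (18%). Ifng had an interaction p of 0.00048 before adjustment and 0.197 after it by limma.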

How the data were processed

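RNA of mouse splenocytes was measured on 12 single-colour arrays, 3 in each of 4 groups, and samples were grouped by their labels. Each deposited value is the linear intensity of 1 probe set, which the authors computed with MAS5, per the submitters' processing notes (version: not given in the sources used here). With 2% trimmed at each end the mean of every array was 500, so arrays had been scaled before deposit. Detection calls and scanner files were not used here. Precision is limited by how many arrays there are.

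Control probe sets (64 of 45101) were set aside, and the rest were transformed as log2(signal + 16) and quantile normalized. Of 45037 probe sets, 34945 named 1 gene in the platform annotation, 932 several and 9160 were not listed. The RefSeq table (assembly GRCm38.p6) held the identifiers of 34741 and changed 0 symbols. Probe sets above the median of their array on at least 3 of 12 arrays were kept (24366), and the one with the highest mean stood for its gene, which gave 11325 of 18193 genes. The fit, by limma 3.58.1 in R 4.3.3, took all 12 arrays with a mean for each group and a trended prior (8 residual and 5.14 prior degrees of freedom), and p-values were adjusted by Benjamini-Hochberg over all genes at 0.05. The median standard error was 0.153 and the median 95% interval was 0.33 wide on either side. The same fit tested the interaction with SEMA3A. The script was tested on simulated data. Lists and tables were made with Python 3.11.15, numpy 2.4.6 and pandas 2.3.3.

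The groups, gene lists and tests were chosen with earlier results of these data known. Lists, 49 in all with their markers, are described by counts and medians, with no test of a list. Genes that may be named are the 12 of smallest p in each direction, the 8 of largest difference in each direction among genes whose groups do not overlap and whose higher group reaches a mean signal of 100, up to 5 members of smallest p per list, and a fixed panel. Clones, predicted genes and receptor segments were left out. Cd8b1 and Epcam, which are fixed markers, were named after their values were seen. With 3 arrays against 3 an exact test cannot go below p = 0.1, so single array measures were given as values. Alternatives left out quantile normalization, used pseudocounts of 1 or 64, dropped the filter or set it at the 75th percentile, chose probe sets by interquartile range, or used only the 6 arrays compared, added a replicate block, added array weights or left out each array in turn.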

Additional observations from a re-analysis of the deposited data

Results flagged for a closer look

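In 8 gene lists every SEMA6A array lay on 1 side of the mean of the control arrays by its median gene, while every array with SEMA6A and SEMA3A lay on the opposite side of the mean of the arrays with SEMA3A alone. Single arrays of the groups overlapped in 3 of these lists without SEMA3A (amino acid stress, cholesterol and fatty acid synthesis, oxidative phosphorylation). With SEMA3A they overlapped in 4 (glycolysis, cholesterol and fatty acid synthesis, the squamous carcinoma list, cytokines). These differences between the 2 settings were not tested for the lists, and the tests of single genes passed for none. As means of the array medians on the log2 scale, glycolysis was at 0.354 for SEMA6A minus control and -0.277 for SEMA6A with SEMA3A minus SEMA3A alone. The other hypoxia targets were at 0.379 and -0.318 in the same order, oxygen sensing at 0.203 and -0.149, and amino acid stress at 0.203 and -0.161. Cholesterol and fatty acid synthesis was at 0.133 and -0.0766, oxidative phosphorylation at 0.0407 and -0.0258, and the squamous carcinoma list at 0.360 and -0.0986. Helper and effector cytokines had the other order, at -0.346 and 0.380. Among the 3 SEMA6A arrays the squamous carcinoma list and the transferrin receptor and pyruvate carboxylase 3'/5' ratios had the same order as the oxygen lists. Among the arrays with SEMA3A alone, the squamous carcinoma list was at 0.33, 0.24 and -0.09. Glycolysis (0.55, 0.47 and 0.11) and the other hypoxia targets (0.52, 0.43 and 0.16) had that order there, but oxygen sensing (0.10, 0.13 and 0.12) did not. The transferrin receptor ratio was 17.2, 17.6 and 18.1 on those arrays, all above the control range of 6.82 to 9.34. Their pyruvate carboxylase ratio was 6.66, 6.9 and 5.78, against a control range of 7.01 to 8.26. The part of tumour cell RNA and of these ratios in the lists was not tested.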

How the results depend on the processing

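Between the SEMA6A and control groups no pairing of arrays by number was found. Their same-numbered arrays had deviations correlated at -0.148, -0.176 and -0.074, and none of these arrays correlated best with its own number. In other pairs of groups some arrays did, such as replicate 2 of SEMA3A and control (0.142) and replicate 2 of both semaphorins and SEMA6A (0.084). With the replicate block 0 genes changed. Of 2941 values of 142 genes under the alternatives, 2913 kept their direction and 77 passed the threshold in the same direction. This agreement was partly fixed in advance. Using only the 6 arrays, adding the replicate block or leaving out an array with SEMA3A hardly alters the difference between the compared groups. Many of the genes were also chosen from these data for a small p or a large difference. Genes changed numbered 0 to 512 when each array was left out, with 512 without SEMA6A replicate 1. Genes higher at an unadjusted p under 0.05 numbered 486 with the filter at the 75th percentile, 472 with only the 6 arrays, 1223 with array weights and 317 to 1649 without single arrays. Genes lower numbered 277 with only the 6 arrays, 1045 with array weights and 217 to 1363 without single arrays. Genes with separate groups numbered 480 higher and 342 lower with the 75th percentile filter, 876 lower with no filter, and 827 to 2484 higher and 534 to 2062 lower without single arrays. The highest of these came without SEMA6A replicate 1, and without any other SEMA6A or control array they were 1257 to 1431 higher and 845 to 1042 lower. Leaving out such an array makes a group smaller, and chance alone then separates a larger share of genes than with 3 arrays against 3. The filters also change how many genes are tested. These counts therefore cannot be set directly beside the 834 and 540 of all arrays. The interaction called 1580 genes with array weights and 0 to 1286 without single arrays. The 1286 came without SEMA6A replicate 1, and a separate fit without SEMA3A replicate 3 gave 281.

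Median differences of lists were as follows. The cytokines were at -0.20 with no filter and -0.60 at the 75th percentile, where the chemokines were at -0.49 and the squamous carcinoma list at 0.0877. Array weights put inhibitory receptors at 0.28, the TNF family at -0.10 and mitosis at 0.0285. Choosing probe sets by interquartile range put the TNF family at -0.0694 and oxidative phosphorylation at 0.0524, and without quantile normalization the semaphorin family was at 0.0205. Without single arrays the TNF family ranged from -0.13 to 0.0039, mitosis from -0.0873 to 0.0391, cholesterol and fatty acid synthesis from 0.0492 to 0.26, the semaphorin family from -0.0460 to 0.0266 and MHC class II from 0.19 to 0.41. Direction turned in 13 genes. When probe sets were chosen by interquartile range, Mynn was at 0.0825, Hif1a at -0.54, Fasl at -0.50, Pes1 at 0.32, Mrps5 at -0.18, Acaca at -0.30 and H2-Ab1 at -0.54. With array weights Plxna1 was at -0.0334, Plxna3 at -0.0346 and Cd8a at 0.32, and without quantile normalization Nrp1 was at 0.0203. Without single arrays Hif1a ranged from -0.0544 to 0.14, Prf1 from -0.0401 to 0.23, Fasl from -0.0273 to 0.0896, Plxna1 from -0.12 to 0.12, Plxna3 from -0.0884 to 0.26, Plxna4 from -0.0337 to 0.55, Nrp1 from -0.27 to 0.12 and Cd8a from -0.20 to 0.26. The cause was not tested. Dim genes are limited by signal near background.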
